A study of Oreochromis niloticus with 12 samples.

Results

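The ovaries of Nile tilapia (Oreochromis niloticus) labelled as SF1-suppressed were set against control ovaries in 3 RNA sequencing libraries each, chosen by their labels. These 6 ovary libraries are part of a series of 12, in which the other 6 come from testis. The SF1-suppressed fish came from eggs mixed with antisense RNA fragments against SF1 (nr5a1) in a liposome transfection reagent and then fertilised. The control fish came from eggs given the same reagent with either ultrapure water or a blank plasmid, and which of these a control library stands for is not said. Larvae of both groups spent their first 30 days in a small recirculating system, the culture lasted 150 days, and the ovaries were taken at sexual maturity. No strain is given, nor whether a library holds 1 fish or pooled tissue or came from 1 or several of the antisense fragments, so each p-value reflects the spread between these libraries alone, part of which may be technical.

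SF1 is a nuclear receptor that, in the vertebrate gonad and adrenal tissue, turns on genes of cholesterol uptake into mitochondria and of steroid synthesis. In the fish ovary the steroids are made by the theca and granulosa cells around each oocyte, where aromatase (cyp19a1a) turns androgens into oestradiol. Growing oocytes store RNAs and proteins for the embryo and take up yolk proteins, which lysosomal proteases cut. Bulk tissue holds the RNA of all these cells together, so that fewer cells of a type and less RNA per cell cannot be told apart.

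The tissue matched its label. The egg coat gene zp2.1 had 1260.2, 1180.4 and 1266 FPKM in SF1-suppressed ovaries, against 1015, 975 and 1005 FPKM in control ovaries, and the oocyte RNA-binding factor zar1 had at least 894 FPKM in all 6. Total counts were 53.0, 58.9 and 60.5 M in the SF1-suppressed libraries and 49.5, 51.7 and 57.2 M in the control libraries. The first principal component held 81.8% of the variance and parted the labels. Control replicate 1 stood apart on the next component (6.77% of the variance), at 26.9 against -9.84 and -15.7 for the other controls.

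SF1 itself did not pass the test of a difference between the labels. The gene nr5a1 (ENSONIG00000020218), at bases 867944 to 883455 of scaffold GL831302.1, had 1.35, 2.95 and 1.73 FPKM in SF1-suppressed ovaries, against 1.37, 1.95 and 2.8 FPKM in control ovaries. The groups overlapped, with the highest value in an SF1-suppressed library (log2 change 0.044, SE 0.34, adjusted p = 0.935). A two-sided exact permutation test of the FPKM gave p = 0.9, where 3 against 3 libraries cannot give less than 0.1. Without suppressed replicate 2 the log2 change was -0.34, and without control replicate 3 it was 0.34. Its relative nr5a2, a receptor of liver, gut and granulosa cells in mammals, was too low to be tested, with 0.248, 0.298 and 0.186 FPKM in SF1-suppressed ovaries, against 0.394, 0.507 and 0.626 FPKM in control ovaries. These groups did not overlap, but nr5a2 lies across from a gene on the opposite strand and the strand of the reads is not given. The third relative, nr5a5, had no read in any ovary library. The ovaries are called SF1-suppressed by their label, and the nr5a1 RNA level at this stage gives no check of it.

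Many genes differed between the labels. Of 12557 genes with at least 1 FPKM in at least 3 ovary libraries, 4510 (35.9%) passed the quasi-likelihood F test of edgeR at an adjusted p under 0.05, which is the test meant wherever an adjusted p is given. In SF1-suppressed ovaries 2268 were higher (18.1%) and 2242 lower (17.9%), and the median log2 change of all genes tested was -0.0049. With libraries scaled by their total counts instead, the split was 1699 higher and 3014 lower and the median of all genes was -0.077. Many changes were small, as 2152 of the calls (47.7%) lay under 0.5 on the log2 scale. The groups did not overlap in FPKM for 6282 genes (50% of those tested). Changes of at least 2-fold were called for 477 higher and 621 lower genes, and of at least 4-fold for 172 higher and 216 lower genes.

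Direction went with the level of a gene. Among the 1011 genes with a mean of at least 100 FPKM, 397 were higher and 78 lower in SF1-suppressed ovaries, with a median log2 change of 0.14. Among the 3495 genes with a mean under 5 FPKM, 502 were higher and 769 lower, with a median of -0.12. Leaving out 1 library at a time moved the count of higher genes between 1638 and 2112 and that of lower genes between 1688 and 2151, and 2934 of the 4510 calls were made in all 6 such fits.

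**Figure D1:**
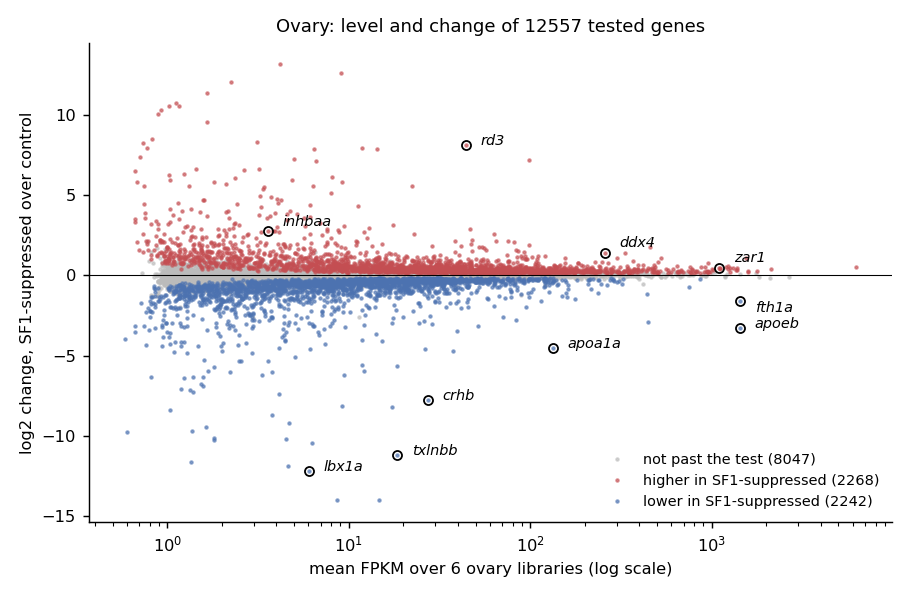
Each point is 1 of the 12557 genes tested, with its mean FPKM over the 6 ovary libraries on a log axis and its log2 change in SF1-suppressed over control ovaries, coloured where it passed the test. Both sets span the range of levels, with a median of the mean FPKM of 24.02 for the 2268 higher genes and 9.16 for the 2242 lower genes, and with a few genes past 10 log2 units in each direction.

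The largest changes were near-complete differences in presence. A log2 change of at least 5, or 32-fold, was called for 43 higher and 43 lower genes. Of these 86 genes, 34 had no symbol (39.5%, against 10.4% of the genes tested). Only 44 of the 86 could also be tested in testis, where 24 passed the test in the same direction and 2 in the opposite one. As background, 1128 of the 11586 genes tested in both gonads passed in testis. Of all ovary calls among those genes, 13.6% also passed in testis, in either direction. For 12 called genes no control ovary held a read, and for 11 no SF1-suppressed ovary did. The largest rises and falls were taken among genes with a symbol of their own, at least 5 FPKM in the higher group and groups that did not overlap. The rises included rd3 and calcoco1b and the falls lbx1a and crhb.

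The gene rd3, which regulates retinal guanylate cyclase (ENSONIG00000006049), had 86, 90.3 and 90.1 FPKM in SF1-suppressed ovaries, against 0.574, 0.227 and 0.183 FPKM in control ovaries. It rose to a near-constant level in the 3 SF1-suppressed ovaries (log2 change 8.1, SE 0.22, adjusted p = 9.7e-09), and its log2 change was 8.73 without control replicate 1. The coiled-coil coactivator gene calcoco1b (ENSONIG00000019166) had 12.9, 12.7 and 12.9 FPKM in SF1-suppressed ovaries, against no read in control ovaries 1 and 2 and 0.149 FPKM in control ovary 3. Its 14 control reads all came from that library, so the fitted size is loose (log2 change 7.84, SE 0.56, adjusted p = 4.98e-06, and 13.09 without control replicate 3). The uncharacterised gene si:ch211-124n19.2 had 9.96, 9.65 and 10.4 FPKM in SF1-suppressed ovaries, against 0.0403, 0.0598 and 0.0896 FPKM in control ovaries (log2 change 7.23, SE 0.19, adjusted p = 7.5e-09). That these groups did not overlap follows from the way the genes were chosen.

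The rises included chrm2b, opn4b and dlgap2a, genes known from nerve or eye. The muscarinic acetylcholine receptor gene chrm2b had 18.8, 18.3 and 16.9 FPKM in SF1-suppressed ovaries, against 0.745, 0.209 and 0.0543 FPKM in control ovaries (log2 change 5.83, SE 0.51, adjusted p = 1.85e-05, and 7.14 without control replicate 1). The melanopsin photopigment gene opn4b had 6.7, 6.61 and 6.67 FPKM in SF1-suppressed ovaries, against 0.158, 0.049 and 0.235 FPKM in control ovaries (log2 change 5.53, SE 0.34, adjusted p = 1.59e-06). The postsynaptic scaffold gene dlgap2a had 8.43, 8.28 and 7.84 FPKM in SF1-suppressed ovaries, against 0.301, 0.313 and 0.365 FPKM in control ovaries (log2 change 4.71, SE 0.10, adjusted p = 3.47e-09). In each case all 3 SF1-suppressed ovaries lay far above the controls. Genes known from nerve or eye were also among the 43 falls, and 3 of these were looked up after their values were seen. The log2 change was -6.40 for the potassium channel gene kcnh4b and -5.11 for a copy of the cone photopigment gene opn1sw2. The hypothalamic peptide gene oxt had no read in SF1-suppressed ovaries and was at least 92.9-fold lower.

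The largest falls ended close to 0. The uncharacterised gene si:zfos-1011f11.1 (ENSONIG00000003388) had no read in any SF1-suppressed ovary, against 15.7, 19 and 17.1 FPKM in control ovaries. Against a limit of 3 counts over the group it was at least 2207-fold lower (adjusted p = 7.36e-08). The homeobox gene lbx1a (ENSONIG00000013173), known from muscle precursors and spinal neurons, also had no read in SF1-suppressed ovaries, against 10.7, 13.3 and 12.4 FPKM in control ovaries, and was at least 617-fold lower (adjusted p = 9.03e-07). The taxilin gene txlnbb had 4 reads in all, from suppressed replicate 2, against 38.3, 35.3 and 37.7 FPKM in control ovaries (log2 change -11.17, SE 0.30, adjusted p = 8.73e-09, and -14.67 without suppressed replicate 2). The gene fam188b2 had no read in suppressed replicate 1 and 0.0354 and 0.26 FPKM in suppressed replicates 2 and 3, against 32.4, 38.7 and 32.3 FPKM in control ovaries (log2 change -8.21, SE 0.45, adjusted p = 8.89e-07, and -10.43 without suppressed replicate 3). The controls were close to each other in all of these genes. With so few reads in SF1-suppressed ovaries the fitted sizes of txlnbb and fam188b2 are loose. Their SE in DESeq2 was larger, at 0.73 and 1.28. Testis means in SF1-suppressed and control libraries were 0.115 and 13.4 FPKM for fam188b2 and 0.0413 and 1.86 FPKM for si:zfos-1011f11.1. They were 0.324 and 0.258 FPKM for lbx1a and 0.0161 and 0.0761 FPKM for txlnbb.

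Precursors of secreted peptides and a membrane protein were among the falls as well. The stress peptide gene crhb, which encodes corticotropin-releasing hormone, had 0.15, 0.234 and 0.236 FPKM in SF1-suppressed ovaries, against 52.3, 58.7 and 52.2 FPKM in control ovaries (log2 change -7.78, SE 0.19, adjusted p = 4.63e-09). Angiotensinogen (agt), the precursor of the blood pressure peptide angiotensin, had 0.0349, 0.0428 and 0.0804 FPKM in SF1-suppressed ovaries, against 20.9, 15.6 and 18.3 FPKM in control ovaries (log2 change -8.15, SE 0.26, adjusted p = 2.93e-08). The membrane protein gene ano9b, of the anoctamin family, had 0.521, 0.42 and 0.167 FPKM in SF1-suppressed ovaries, against 27.8, 22.5 and 21 FPKM in control ovaries (log2 change -5.94, SE 0.28, adjusted p = 3.05e-07). The groups were apart in each of the 3 genes, which the choice of the largest falls required.

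**Figure D2:**
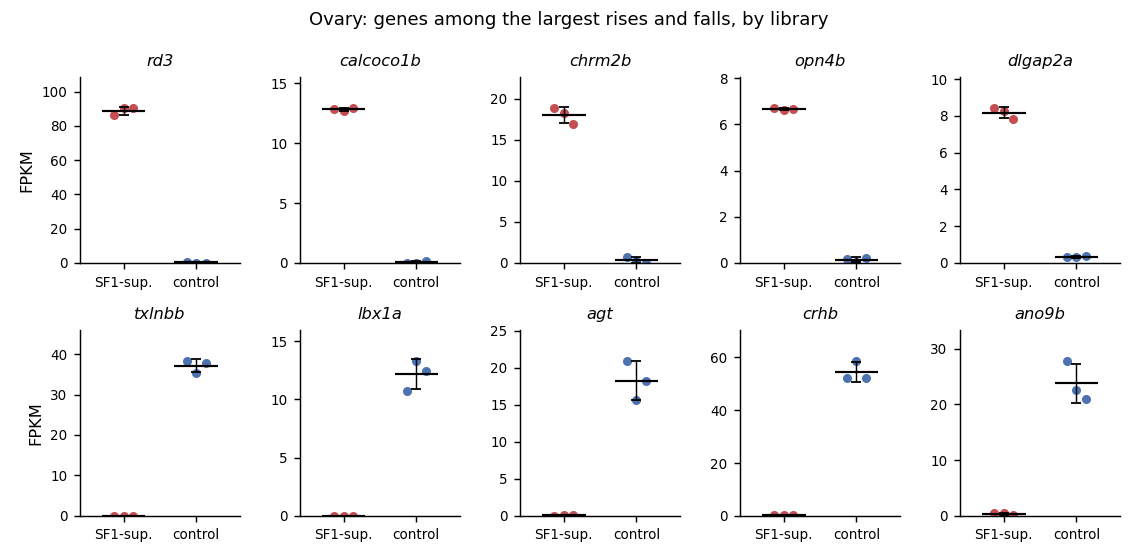
FPKM of 10 genes among the largest rises and falls in each of the 3 SF1-suppressed (left) and 3 control ovaries (right), with bars for the mean and SD. In rd3, calcoco1b, chrm2b, opn4b and dlgap2a the controls lie near 0, and in txlnbb, lbx1a, agt, crhb and ano9b the SF1-suppressed libraries do.

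Among the most abundant genes that fell were carriers of lipid and a store of iron. The lipid carrier apolipoprotein E (apoeb) had 264, 322 and 195 FPKM in SF1-suppressed ovaries, against 1395, 3276 and 3141 FPKM in control ovaries (log2 change -3.25, SE 0.31, adjusted p = 3.05e-05). The ferritin heavy chain gene fth1a, which stores iron, had 701, 718 and 643 FPKM in SF1-suppressed ovaries, against 1308, 2749 and 2509.7 FPKM in control ovaries (log2 change -1.6, SE 0.22, adjusted p = 0.000365). The fatty acid binding protein gene fabp11a had 106, 114 and 87.2 FPKM in SF1-suppressed ovaries, against 415, 1064 and 906 FPKM in control ovaries (log2 change -2.89, SE 0.29, adjusted p = 4.76e-05). In all 3 genes control replicate 1, the library that stood apart, was the lowest control and still lay above every SF1-suppressed ovary. The most abundant genes that rose did so by far less. The gene si:ch211-14a17.7 had 2418, 2343 and 2351 FPKM in SF1-suppressed ovaries, against 2041, 1774 and 1843 FPKM in control ovaries (log2 change 0.40, SE 0.059, adjusted p = 0.000561), and the tubulin gene tubb2b had 1506, 1471 and 1526 FPKM in SF1-suppressed ovaries, against 1325, 1257 and 1238 FPKM in control ovaries (log2 change 0.31, SE 0.049, adjusted p = 0.000941). The glycolytic enzyme enolase (eno3) had 1599.8, 1499.6 and 1584 FPKM in SF1-suppressed ovaries, against 1230.4, 1184 and 1206 FPKM in control ovaries (log2 change 0.44, SE 0.05, adjusted p = 0.000106). These groups did not overlap, though in a fit over all 12 libraries of the series the adjusted p was 0.402 for si:ch211-14a17.7 and 0.172 for tubb2b.

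The steroid enzymes did not move as a block. Of 33 tested genes of cholesterol entry and steroid synthesis, 6 were higher and 10 lower in SF1-suppressed ovaries, with a median log2 change of -0.059. For this and the lists below, the background is 18.1% higher and 17.9% lower of all genes tested, and 35.9% either way. In this list 48.5% passed. The count of higher genes was 3 without suppressed replicate 1 and that of lower genes 6 without control replicate 2. The mitochondrial cholesterol carrier star had 2.8, 2.81 and 1.55 FPKM in SF1-suppressed ovaries, against 3.07, 2.77 and 3.74 FPKM in control ovaries (log2 change -0.35, SE 0.24, adjusted p = 0.272). The side-chain cleavage enzyme cyp11a2 had 7.37, 9.58 and 4.7 FPKM in SF1-suppressed ovaries, against 7.78, 9.68 and 11.2 FPKM in control ovaries (log2 change -0.33, SE 0.24, adjusted p = 0.297). The next enzyme, hsd3b1, had 11.2, 19.6 and 10.05 FPKM in SF1-suppressed ovaries, against 10.7, 14.7 and 18.1 FPKM in control ovaries (log2 change -0.026, SE 0.25, adjusted p = 0.948), and the fish 17-alpha-hydroxylase cyp17a2 had 4.58, 6.3 and 3.24 FPKM in SF1-suppressed ovaries, against 4.87, 5.71 and 8.19 FPKM in control ovaries (log2 change -0.34, SE 0.25, adjusted p = 0.315). The groups overlapped in each of these 4 early steps, and none passed the test. The electron donor of the mitochondrial enzymes, ferredoxin (fdx1), also did not pass, with 181, 169.7 and 177 FPKM in SF1-suppressed ovaries, against 191, 186 and 194 FPKM in control ovaries (log2 change -0.043, SE 0.06, adjusted p = 0.615).

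The oestrogen-forming enzymes were lower by a margin that rested on single libraries. Aromatase (cyp19a1a) had 50.7, 72.2 and 50.5 FPKM in SF1-suppressed ovaries, against 67.8, 90.2 and 104 FPKM in control ovaries (log2 change -0.53, SE 0.16, adjusted p = 0.0317). Suppressed replicate 2 lay above control replicate 1, so the groups overlapped. Its adjusted p was 0.0723 without control replicate 2, 0.122 without control replicate 3, 0.112 without suppressed replicate 1, 0.109 without suppressed replicate 3 and 0.073 in DESeq2. The enzyme that activates oestrone to oestradiol in mammals, hsd17b1, had 24.3, 45.2 and 29.5 FPKM in SF1-suppressed ovaries, against 43.6, 69.7 and 59.6 FPKM in control ovaries (log2 change -0.74, SE 0.22, adjusted p = 0.0248). Its groups overlapped too, and its adjusted p was 0.0807, 0.0687, 0.0824 and 0.0824 without the same libraries in turn and 0.0604 in DESeq2. In the fit over all 12 libraries the adjusted p was 0.164 for cyp19a1a and 0.118 for hsd17b1. With a replicate block it was 0.0193 and 0.000556, though the replicate numbers did not pair the samples.

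Firmer changes lay in other genes of steroid and lipid handling, not all of them steps of gonadal steroid synthesis. The 11-beta-hydroxylase cyp11c1, which forms the fish androgen 11-ketotestosterone and cortisol with other enzymes, fell, with 8.16, 7.05 and 6.44 FPKM in SF1-suppressed ovaries, against 16.9, 12.7 and 14.7 FPKM in control ovaries (log2 change -0.96, SE 0.12, adjusted p = 0.000257). The enzyme hsd17b12a, which reduces steroids and elongates fatty acids, fell likewise, with 14.5, 17 and 12.6 FPKM in SF1-suppressed ovaries, against 28.5, 26.8 and 27.3 FPKM in control ovaries (log2 change -0.83, SE 0.11, adjusted p = 0.000278). In the fit over all 12 libraries their adjusted p was 0.0732 and 0.0727. The endosomal cholesterol carrier stard3 had 13.6, 13.5 and 15.7 FPKM in SF1-suppressed ovaries, against 20.2, 21.7 and 20.8 FPKM in control ovaries (log2 change -0.48, SE 0.077, adjusted p = 0.000914). A copy of the carbonyl reductase gene cbr1 (ENSONIG00000001566), of an enzyme family that in fish makes the maturation-inducing progestin, showed a larger fall, with 3.85, 3.52 and 6.23 FPKM in SF1-suppressed ovaries, against 31.2, 35.3 and 25.5 FPKM in control ovaries (log2 change -2.68, SE 0.22, adjusted p = 1.35e-05). Reads of cbr1 copies can be split between them, so this value is less certain. Upward, the bile acid enzyme hsd3b7 had 207, 201 and 209 FPKM in SF1-suppressed ovaries, against 106, 103 and 104 FPKM in control ovaries (log2 change 1.05, SE 0.048, adjusted p = 2.55e-07), and the peroxisomal enzyme hsd17b4 had 33.8, 34 and 33.9 FPKM in SF1-suppressed ovaries, against 28.3, 25.1 and 22.7 FPKM in control ovaries (log2 change 0.49, SE 0.075, adjusted p = 0.00069). No groups overlapped in these 6 genes.

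Hormone receptors and ligands went both ways. Of 25 tested genes, 4 were higher and 7 lower, with a median log2 change of -0.28 (4 lower without suppressed replicate 3). This is 44.0% past the test, against 35.9% of all genes tested. The activin subunit gene inhbaa rose, with 6.53, 6.12 and 5.97 FPKM in SF1-suppressed ovaries, against 0.668, 0.688 and 1.5 FPKM in control ovaries (log2 change 2.75, SE 0.31, adjusted p = 9.78e-05). The membrane progestin receptor gene paqr8, of a family that mediates oocyte maturation in fish, rose as well, with 105, 98.6 and 96.1 FPKM in SF1-suppressed ovaries, against 74, 83.3 and 76.3 FPKM in control ovaries (log2 change 0.43, SE 0.068, adjusted p = 0.000873). Both were apart from the controls in every library. The oestrogen receptor gene esr2a fell, with 18.9, 19.7 and 18.7 FPKM in SF1-suppressed ovaries, against 25.5, 25.7 and 24.8 FPKM in control ovaries (log2 change -0.34, SE 0.053, adjusted p = 0.000832), and so did the Kit ligand gene kitlga, a granulosa signal to the oocyte, with 1.9, 1.71 and 1.96 FPKM in SF1-suppressed ovaries, against 3.33, 3.55 and 2.84 FPKM in control ovaries (log2 change -0.73, SE 0.13, adjusted p = 0.002). In the fit over all 12 libraries their adjusted p was 0.44 and 0.0995. The inhibin subunit gene inha had 43.2, 56.5 and 53.9 FPKM in SF1-suppressed ovaries, against 47.2, 85 and 69.3 FPKM in control ovaries and did not pass the test (log2 change -0.32, SE 0.18, adjusted p = 0.197). The luteinising hormone receptor gene lhcgr was too low to be tested, with 0.387, 0.358 and 0.585 FPKM in SF1-suppressed ovaries, against 0.22, 0.169 and 0.193 FPKM in control ovaries.

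Markers of the somatic cells of the follicle gave mixed counts. Of 20 tested granulosa and ovary genes, 3 were higher and 6 lower (median log2 change 0.026), with 5 higher without control replicate 3 and 3 lower without control replicate 2, control replicate 3, suppressed replicate 1 or suppressed replicate 3. The ovary transcription factor gene foxl2 had 9.71, 13 and 11.3 FPKM in SF1-suppressed ovaries, against 7.73, 13.2 and 16.6 FPKM in control ovaries (log2 change -0.075, SE 0.24, adjusted p = 0.839), with the groups overlapping. Anti-Mullerian hormone (amh), made by granulosa and Sertoli cells, rose, with 10.8, 10.6 and 12.3 FPKM in SF1-suppressed ovaries, against 6.61, 8.27 and 7.68 FPKM in control ovaries (log2 change 0.65, SE 0.13, adjusted p = 0.00336, and 0.234 in the fit over all 12 libraries). The prostaglandin synthase gene ptgs2b, induced around ovulation, had 2.04, 2.84 and 2.5 FPKM in SF1-suppressed ovaries, against 0.228, 0.205 and 0.517 FPKM in control ovaries (log2 change 3.0, SE 0.35, adjusted p = 0.000121). The transcription factor gene dmrt2a fell, with 3.79, 4.24 and 4.23 FPKM in SF1-suppressed ovaries, against 8.58, 7.15 and 9.23 FPKM in control ovaries (log2 change -0.95, SE 0.15, adjusted p = 0.000703). The R-spondin gene rspo1, an enhancer of Wnt signals in the ovary, had 0.477, 0.443 and 0.392 FPKM in SF1-suppressed ovaries, against 1.05, 1.25 and 1.3 FPKM in control ovaries (log2 change -1.38, SE 0.22, adjusted p = 0.000887). None of the last 4 genes had overlapping groups.

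Of 10 tested genes of theca, Leydig and other interstitial steroid cells, 0 were higher and 3 lower, with a median of -0.34. This is 30.0% past the test, below the 35.9% of all genes tested. The homeobox gene arxa, which in mice acts in interstitial cells of the testis, fell, with 1.84, 1.74 and 1.42 FPKM in SF1-suppressed ovaries, against 7.68, 7.56 and 7.43 FPKM in control ovaries (log2 change -2.11, SE 0.12, adjusted p = 1.31e-06). Among 18 tested genes of Sertoli cells and testis differentiation, 3 were higher and 4 lower, with a median of -0.17 (7 lower without suppressed replicate 2). Their share past the test, 38.9%, was near that of all genes. The testis transcription factor gene dmrt1 rose, with 3.31, 3.24 and 3.18 FPKM in SF1-suppressed ovaries, against 0.958, 0.817 and 1.34 FPKM in control ovaries (log2 change 1.71, SE 0.28, adjusted p = 0.00106). The water channel gene aqp1a.1 rose too, with 7.15, 5.2 and 4.49 FPKM in SF1-suppressed ovaries, against 2.17, 2.33 and 1.73 FPKM in control ovaries (log2 change 1.5, SE 0.24, adjusted p = 0.000842). Against these stood the Hedgehog ligand gene dhh, with 8.03, 8.0 and 8.65 FPKM in SF1-suppressed ovaries, against 14, 15.1 and 14 FPKM in control ovaries (log2 change -0.73, SE 0.074, adjusted p = 4.8e-05), the transcription factor gene sox8a, with 5.15, 5.69 and 5.81 FPKM in SF1-suppressed ovaries, against 8.92, 10.9 and 9.78 FPKM in control ovaries (log2 change -0.76, SE 0.10, adjusted p = 0.000338), and the tight junction gene cldn11a, with 3.55, 4.83 and 2.46 FPKM in SF1-suppressed ovaries, against 6.71, 12.6 and 11.3 FPKM in control ovaries (log2 change -1.43, SE 0.27, adjusted p = 0.00252). The groups of these 5 genes did not overlap. Clusterin (clu) had 245, 455 and 284 FPKM in SF1-suppressed ovaries, against 378, 563 and 589 FPKM in control ovaries and the gonadal growth factor gene gsdf 24.8, 27.2 and 29.1 FPKM in SF1-suppressed ovaries, against 22.5, 31.4 and 23.3 FPKM in control ovaries. Neither passed the test, at adjusted p = 0.0679 and 0.455.

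The oocyte and germ line genes that passed the test rose, with 1 exception among the germ cell genes. Of 31 tested oocyte genes, 15 were higher and 0 lower in SF1-suppressed ovaries, with a median log2 change of 0.18 (1 lower without control replicate 1). In the fit over all 12 libraries 4 were higher and 0 lower. Over all genes tested 18.1% were higher, and among those with a mean of at least 100 FPKM 397 of 1011 were, with a median of 0.14. Whether the oocyte and germ cell genes went beyond others of their level was not tested. Of 27 tested germ cell genes, 10 were higher and 1 lower, with a median of 0.15. The lower one, looked up after the count was seen, was the chemokine receptor gene cxcr4a (log2 change -0.61), which many cell types express. The changes were small in fold, and the replicates lay close together. The maternal factor zar1 had 1248, 1248 and 1253 FPKM in SF1-suppressed ovaries, against 934, 894 and 1037 FPKM in control ovaries (log2 change 0.46, SE 0.059, adjusted p = 0.000248), and the egg coat gene zp2.1 named above gave log2 change 0.38, SE 0.051, adjusted p = 0.000315. The RNA storage protein gene YBX2 had 135, 126 and 134 FPKM in SF1-suppressed ovaries, against 94, 97.8 and 109 FPKM in control ovaries (log2 change 0.47, SE 0.065, adjusted p = 0.000406). The histone RNA-binding gene slbp2, an oocyte form, had 370.3, 389 and 418 FPKM in SF1-suppressed ovaries, against 291, 288 and 332 FPKM in control ovaries (log2 change 0.44, SE 0.069, adjusted p = 0.000829). The oogenesis-related gene org had 434, 409 and 447 FPKM in SF1-suppressed ovaries, against 355, 374 and 349 FPKM in control ovaries (log2 change 0.33, SE 0.057, adjusted p = 0.00147), and the cyclin gene ccnb1, which drives meiotic maturation, had 869.7, 822 and 862 FPKM in SF1-suppressed ovaries, against 712, 672 and 739 FPKM in control ovaries (log2 change 0.34, SE 0.054, adjusted p = 0.000948). Every SF1-suppressed ovary lay above every control in these 6 genes. In the fit over all 12 libraries the adjusted p was 0.0895 for zar1, 0.518 for zp2.1 and 0.18 for org.

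Among the germ cell genes, the RNA helicase gene ddx4 (vasa), the classical germ cell marker, rose as well. It had 369.6, 371 and 367 FPKM in SF1-suppressed ovaries, against 147, 153 and 153 FPKM in control ovaries (log2 change 1.36, SE 0.047, adjusted p = 5.66e-08). The germ cell RNA-binding gene dnd1, which shields germ cell RNAs from microRNAs in zebrafish, had 90.8, 86.9 and 88.7 FPKM in SF1-suppressed ovaries, against 62.1, 66.9 and 67 FPKM in control ovaries (log2 change 0.51, SE 0.056, adjusted p = 7.89e-05). The piRNA pathway genes piwil1 and asz1 rose with them, with 134, 132 and 125 FPKM in SF1-suppressed ovaries, against 107, 101 and 106 FPKM in control ovaries for piwil1 (log2 change 0.39, SE 0.051, adjusted p = 0.000284) and 51, 48.8 and 53.4 FPKM in SF1-suppressed ovaries, against 40.05, 33.9 and 36.9 FPKM in control ovaries for asz1 (log2 change 0.54, SE 0.077, adjusted p = 0.000477). The pluripotency factor gene pou5f3 had 199, 199.8 and 213 FPKM in SF1-suppressed ovaries, against 149, 159 and 156 FPKM in control ovaries (log2 change 0.47, SE 0.053, adjusted p = 0.000102, and 0.104 in the fit over all 12 libraries). These groups did not overlap. The RNA-binding gene nanos3, a germ cell survival factor, did not follow, with 311, 316 and 324 FPKM in SF1-suppressed ovaries, against 315, 317 and 314 FPKM in control ovaries (log2 change 0.077, SE 0.047, adjusted p = 0.231). 

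Meiosis genes moved in both directions. Of 25 tested, 10 were higher and 7 lower, with a median of 0.17 (7 and 7 with total count scaling), and the counts were 6 higher without control replicate 3 and 5 higher and 4 lower without suppressed replicate 3. A copy of SUN1 (ENSONIG00000019101), whose product ties telomeres to the nuclear envelope in mammalian meiosis, had 122, 116 and 132 FPKM in SF1-suppressed ovaries, against 53.9, 57.1 and 55.6 FPKM in control ovaries (log2 change 1.22, SE 0.063, adjusted p = 5.5e-07). The recombinase gene dmc1, which acts in early meiotic prophase, fell, with 5.33, 6.43 and 4.89 FPKM in SF1-suppressed ovaries, against 12.4, 11.7 and 12.3 FPKM in control ovaries (log2 change -1.06, SE 0.15, adjusted p = 0.000393). The meiotic cohesin gene STAG3 fell by less, with 17.6, 20.2 and 19.9 FPKM in SF1-suppressed ovaries, against 28.4, 27 and 27.7 FPKM in control ovaries (log2 change -0.46, SE 0.063, adjusted p = 0.000372). In each the groups were apart.

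**Figure D3:**
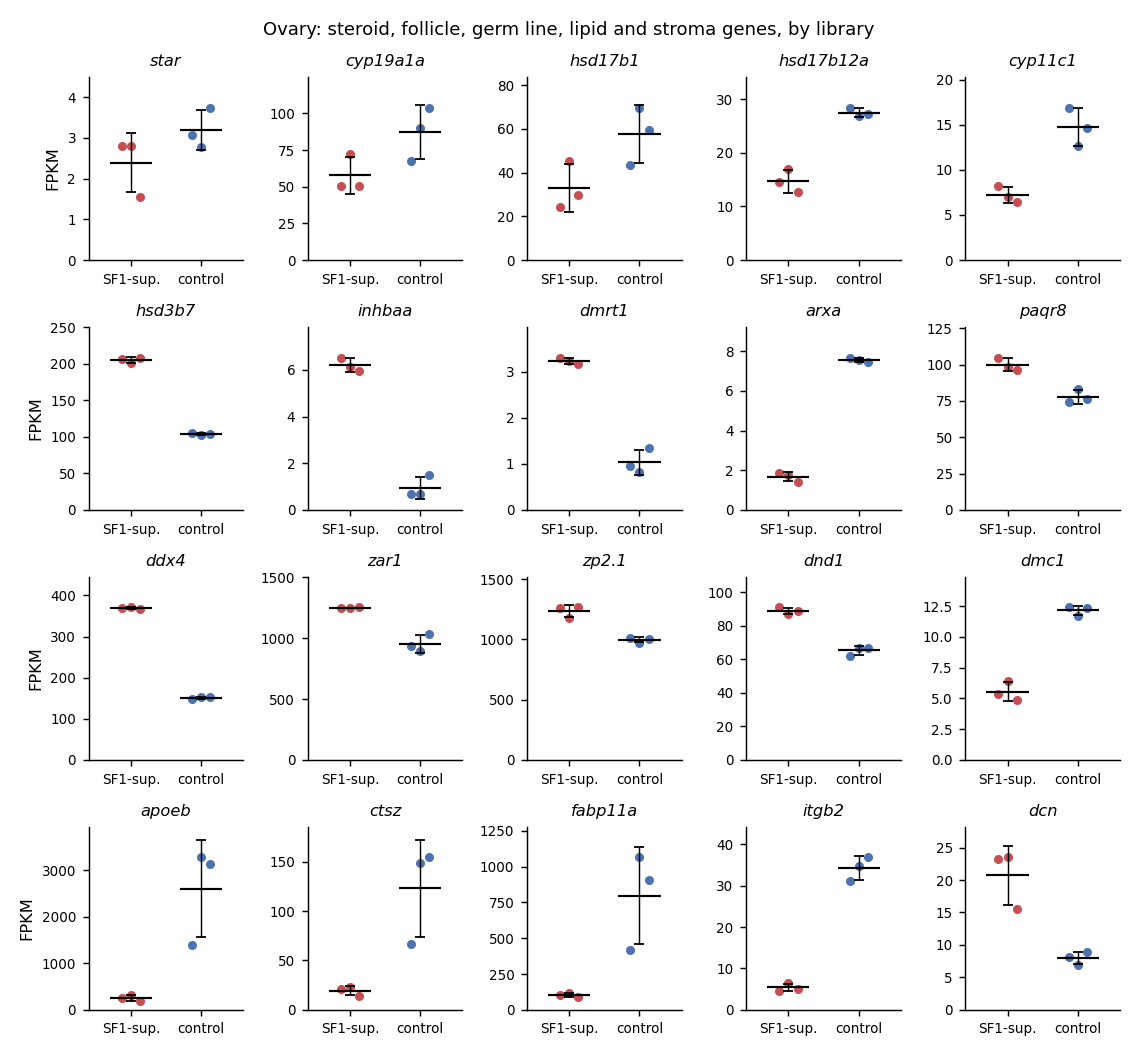
FPKM of 20 genes of steroid synthesis, follicle, germ line, lipid handling, leukocytes and stroma in the 3 SF1-suppressed (left) and 3 control ovaries (right), with bars for the mean and SD. The groups overlap for star, cyp19a1a and hsd17b1 and are apart for the other 17 genes, and control replicate 1 is the lowest control for apoeb, ctsz and fabp11a.

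Lysosomal and lipid-handling genes fell in larger number than they rose. Of 49 tested genes of yolk uptake and lysosomal proteolysis, 8 were higher and 20 lower in SF1-suppressed ovaries, with a median log2 change of -0.15 (5 higher without suppressed replicate 1 or suppressed replicate 3). Lysosomal proteases are made by macrophages as well as by other cells. The dipeptidase cathepsin C (ctsc) had 31.8, 30.6 and 29.5 FPKM in SF1-suppressed ovaries, against 79, 90.7 and 84.7 FPKM in control ovaries (log2 change -1.4, SE 0.065, adjusted p = 2.67e-07). Cathepsin Z (ctsz) had 21.3, 23 and 14.2 FPKM in SF1-suppressed ovaries, against 66.5, 148 and 154 FPKM in control ovaries (log2 change -2.59, SE 0.30, adjusted p = 0.000116), and the tripeptidase tpp1 had 6.27, 7.58 and 4.64 FPKM in SF1-suppressed ovaries, against 26.1, 53.4 and 57.2 FPKM in control ovaries (log2 change -2.82, SE 0.28, adjusted p = 4.75e-05). Legumain (lgmn), which activates other lysosomal proteases, had 14.2, 15.6 and 13.6 FPKM in SF1-suppressed ovaries, against 32.2, 55.2 and 49.2 FPKM in control ovaries (log2 change -1.58, SE 0.17, adjusted p = 6.18e-05). Cathepsin D (ctsd), which cuts vitellogenin into yolk proteins in egg-laying vertebrates, had 37.3, 42.5 and 36.2 FPKM in SF1-suppressed ovaries, against 71.9, 132 and 119 FPKM in control ovaries (log2 change -1.4, SE 0.18, adjusted p = 0.000278). All 5 protease genes were apart between the groups. The lysosomal protein gene grnb (progranulin) went the other way, with 449.6, 485 and 467 FPKM in SF1-suppressed ovaries, against 329.7, 293 and 318 FPKM in control ovaries (log2 change 0.65, SE 0.056, adjusted p = 1.7e-05). The sterol carrier npc2 did not pass, with 929, 829 and 916 FPKM in SF1-suppressed ovaries, against 940.0, 1041 and 946 FPKM in control ovaries (log2 change -0.059, SE 0.066, adjusted p = 0.523).

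Of 31 tested genes of cholesterol synthesis and uptake, 3 were higher and 10 lower (1 and 14 with total count scaling), with a median of -0.14. The higher count was 1 without control replicate 1 or control replicate 3 and 0 without suppressed replicate 1 or suppressed replicate 3. The lipoprotein receptor gene ldlra had 6.69, 6.19 and 5.86 FPKM in SF1-suppressed ovaries, against 15.3, 17.6 and 15.1 FPKM in control ovaries (log2 change -1.29, SE 0.085, adjusted p = 2.92e-06). Apolipoprotein A-I (apoa1a), the main protein of high-density lipoprotein, had 12.1, 8.54 and 11.8 FPKM in SF1-suppressed ovaries, against 149, 358 and 268 FPKM in control ovaries (log2 change -4.51, SE 0.30, adjusted p = 3.12e-06). Both fell in all 3 libraries.

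Some leukocyte markers fell beside these lysosomal genes. Of 28 tested leukocyte and immune genes, 0 were higher and 11 lower (2 higher without control replicate 3, 6 lower in the fit over all 12 libraries), with a median of -0.57, and the summed level of the whole list of 39 genes ran from 293 to 407 FPKM in SF1-suppressed ovaries and from 333 to 557 FPKM in control ovaries. The sums overlapped and no member was at 0 in all 6 libraries. The leukocyte integrin gene itgb2 had 4.65, 6.44 and 5.14 FPKM in SF1-suppressed ovaries, against 31, 34.8 and 36.8 FPKM in control ovaries (log2 change -2.59, SE 0.12, adjusted p = 2.79e-07). The macrophage growth factor receptor gene csf1rb had 2.0, 2.46 and 1.64 FPKM in SF1-suppressed ovaries, against 4.18, 6.52 and 7.58 FPKM in control ovaries (log2 change -1.51, SE 0.23, adjusted p = 0.000679). Both fell, but the antigen presentation genes did not pass the test. The invariant chain gene cd74b had 179, 185 and 134 FPKM in SF1-suppressed ovaries, against 109.8, 186 and 172 FPKM in control ovaries (log2 change 0.16, SE 0.18, adjusted p = 0.532), and b2m had 81.6, 72 and 60.9 FPKM in SF1-suppressed ovaries, against 60.2, 125 and 97.2 FPKM in control ovaries (log2 change -0.32, SE 0.21, adjusted p = 0.267). The part of leukocytes in the lysosomal falls was not tested.

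Most of the tested genes of connective tissue were higher in the ovary fit. Of 37 tested genes of stroma, matrix and smooth muscle, 25 were higher and 2 lower (1 lower without control replicate 2, control replicate 3, suppressed replicate 1 or suppressed replicate 3), with a median log2 change of 0.67 against -0.0049 over all genes. In the fit over all 12 libraries 7 were higher and 1 lower. The summed level of the list was 1297 to 1431 FPKM in SF1-suppressed ovaries and 773 to 869 FPKM in control ovaries. The collagen genes col1a1b and col1a2, the chains of type I collagen, had 85.1, 101 and 64.1 FPKM in SF1-suppressed ovaries, against 23.4, 25.9 and 40.6 FPKM in control ovaries for col1a1b (log2 change 1.55, SE 0.21, adjusted p = 0.000319) and 73.5, 85.1 and 52.2 FPKM in SF1-suppressed ovaries, against 20.5, 20.9 and 34.3 FPKM in control ovaries for col1a2 (log2 change 1.55, SE 0.21, adjusted p = 0.000381). The lysyl oxidase genes, whose products cross-link collagen, rose as well, with 1.9, 3.62 and 1.04 FPKM in SF1-suppressed ovaries, against 0.0887, 0.0282 and 0.176 FPKM in control ovaries for loxa (log2 change 4.49, SE 0.60, adjusted p = 0.000305, and 5.20 without control replicate 3) and 4.09, 4.97 and 3.94 FPKM in SF1-suppressed ovaries, against 1.34, 1.18 and 1.29 FPKM in control ovaries for loxl2a (log2 change 1.84, SE 0.13, adjusted p = 3.49e-06). The collagen-binding proteoglycan decorin (dcn) had 23.2, 23.5 and 15.5 FPKM in SF1-suppressed ovaries, against 8.16, 6.93 and 8.85 FPKM in control ovaries (log2 change 1.45, SE 0.15, adjusted p = 6.49e-05). No SF1-suppressed ovary overlapped with the controls in these 5 genes.

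Smooth muscle genes of the list did not all follow. Transgelin (tagln), an actin-binding protein, had 626, 613 and 660.5 FPKM in SF1-suppressed ovaries, against 411, 356 and 371 FPKM in control ovaries (log2 change 0.81, SE 0.064, adjusted p = 9.37e-06), while the smooth muscle myosin gene myh11b fell, with 0.547, 1.08 and 0.944 FPKM in SF1-suppressed ovaries, against 4.23, 3.18 and 3.97 FPKM in control ovaries (log2 change -2.07, SE 0.23, adjusted p = 8.15e-05). Fibronectin (fn1a) had 9.26, 14.1 and 9.29 FPKM in SF1-suppressed ovaries, against 7.95, 11.3 and 16 FPKM in control ovaries (log2 change -0.041, SE 0.23, adjusted p = 0.91), with the groups overlapping. In the fit over all 12 libraries the adjusted p was 0.0922 for col1a1b, 0.0757 for col1a2 and 0.268 for tagln.

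Of 16 tested endothelial genes, 3 were higher and 2 lower, with a median of 0.19. Their share past the test, 31.2%, was below the 35.9% of all genes tested. The lymphatic receptor gene flt4 fell, with 1.24, 1.49 and 1.09 FPKM in SF1-suppressed ovaries, against 11.9, 11.13 and 12.1 FPKM in control ovaries (log2 change -3.13, SE 0.12, adjusted p = 8.73e-08). It overlaps other genes on the opposite strand, so its reads may not all be its own. The apelin receptor gene aplnrb rose, with 31.2, 32.2 and 33.2 FPKM in SF1-suppressed ovaries, against 15.5, 16.5 and 13.7 FPKM in control ovaries (log2 change 1.15, SE 0.095, adjusted p = 1.19e-05), and so did the scavenger receptor gene stab2, with 1.54, 1.63 and 1.38 FPKM in SF1-suppressed ovaries, against 0.588, 0.538 and 0.619 FPKM in control ovaries (log2 change 1.45, SE 0.15, adjusted p = 4.8e-05). The groups were apart in all 3. Proteolysis genes of ovulation were mixed. Of 24 tested genes of ovulation and prostaglandins, 7 were higher and 9 lower, with a median of -0.35. Urokinase (plaub), a plasminogen activator, had 0.0228, 0.0414 and 0.0259 FPKM in SF1-suppressed ovaries, against 2.85, 3.1 and 2.26 FPKM in control ovaries (log2 change -6.31, SE 0.27, adjusted p = 1.91e-07), and the other plasminogen activator, plat, had 2.52, 1.89 and 1.42 FPKM in SF1-suppressed ovaries, against 4.69, 4.69 and 5.3 FPKM in control ovaries (log2 change -1.26, SE 0.20, adjusted p = 0.000883). The metalloprotease inhibitor gene timp2b fell with them, with 9.29, 11.5 and 12 FPKM in SF1-suppressed ovaries, against 36.3, 42.2 and 34.7 FPKM in control ovaries (log2 change -1.72, SE 0.14, adjusted p = 9.38e-06). In these 3 genes every SF1-suppressed ovary was below every control.

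Few genes of skeletal muscle, liver and digestive organs reached the level to be tested, and most of those tested passed. A gene near 0 in either group enters the test only through the group where it is high. In such short lists a high share past the test follows in part from this filter and is no separate result. Of 9 tested skeletal muscle genes, 5 were higher and 0 lower, and the abundant enolase gene eno3 named above is among those higher. The muscle actin gene acta1a had 15, 17.9 and 30.9 FPKM in SF1-suppressed ovaries, against 1.45, 0.453 and 1.46 FPKM in control ovaries (log2 change 4.31, SE 0.40, adjusted p = 2.8e-05), and the fast troponin gene tnnc2 had 12.1, 14 and 13.9 FPKM in SF1-suppressed ovaries, against 1.59, 1.7 and 2.26 FPKM in control ovaries (log2 change 2.9, SE 0.23, adjusted p = 9.14e-06). Of the 45 muscle genes of the list, 10 had no read in any ovary library, parvalbumins and mylz3 among them. Of 13 tested liver genes, 3 were higher and 7 lower, among the lower ones transferrin (tfa), an iron carrier of blood, with 0.217, 0.289 and 0.142 FPKM in SF1-suppressed ovaries, against 4.96, 5.63 and 3.47 FPKM in control ovaries (log2 change -4.35, SE 0.29, adjusted p = 3.3e-06). A copy of complement C3 (ENSONIG00000016437) rose, with 4.66, 6.0 and 5.15 FPKM in SF1-suppressed ovaries, against 0.0576, 0.103 and 0.0129 FPKM in control ovaries (log2 change 6.55, SE 0.39, adjusted p = 1.37e-06, and 7.28 without control replicate 2). The liver genes ambp, serpinc1, fabp10a and itih2 had no read in any ovary library. All 4 tested genes of exocrine pancreas and intestine were lower (2 without control replicate 2, suppressed replicate 1 or suppressed replicate 2). The carboxypeptidase gene cpa4 had 1.63, 1.51 and 0.706 FPKM in SF1-suppressed ovaries, against 10.34, 32.8 and 23.9 FPKM in control ovaries (log2 change -4.05, SE 0.44, adjusted p = 7.68e-05), and the insulin gene ins had no read. The groups were apart in all of the named genes.

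Of 8 tested kidney and interrenal genes, 4 were higher and 2 lower. The limit set by the filter on level holds for this short list too. The cadherin gene cdh17 rose, with 2.75, 2.67 and 1.94 FPKM in SF1-suppressed ovaries, against 0.0321, 0.0307 and 0.0278 FPKM in control ovaries (log2 change 6.31, SE 0.26, adjusted p = 1.74e-07). The phosphate carrier gene slc20a1a fell, with 0.778, 1.04 and 1.25 FPKM in SF1-suppressed ovaries, against 13.3, 12.5 and 11.9 FPKM in control ovaries (log2 change -3.54, SE 0.16, adjusted p = 2.55e-07). The groups were apart in both. Of 3 tested erythrocyte genes, 0 passed the test with all 6 libraries, and 1 was lower without suppressed replicate 2. Of 12 tested genes of neurons and glia, 7 were higher and 2 lower, and of 14 adipocyte genes, 2 were higher and 4 lower (2 lower without control replicate 3, suppressed replicate 1 or suppressed replicate 3).

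Growth factor signalling lists were balanced in number and held some strong single changes. Of 31 tested genes of the TGF-beta and BMP pathways, 8 were higher and 8 lower (5 and 10 with total count scaling, 4 higher without suppressed replicate 3 and 5 lower without control replicate 3). The ligand gene bmp8a had 13.6, 17.1 and 15.2 FPKM in SF1-suppressed ovaries, against 2.04, 1.83 and 2.81 FPKM in control ovaries (log2 change 2.84, SE 0.18, adjusted p = 2.27e-06), and the gene LTBP3, whose product stores latent TGF-beta in the matrix, had 4.68, 5.1 and 4.56 FPKM in SF1-suppressed ovaries, against 0.704, 0.814 and 0.961 FPKM in control ovaries (log2 change 2.6, SE 0.14, adjusted p = 6.72e-07). Of 28 tested Wnt genes, 4 were higher and 6 lower (2 higher without control replicate 1, control replicate 3, suppressed replicate 1 or suppressed replicate 3). Their share past the test, 35.7%, was near the 35.9% of all genes tested. The R-spondin receptor gene LGR5 had no read in suppressed replicate 1 and 0.00672 and 0.0575 FPKM in suppressed replicates 2 and 3, against 3.06, 2.95 and 3.38 FPKM in control ovaries (log2 change -6.9, SE 0.55, adjusted p = 9.49e-06, and -9.04 without suppressed replicate 3). The Wnt receptor gene FZD1 had 9.0, 11.5 and 9.64 FPKM in SF1-suppressed ovaries, against 23, 22.4 and 21.3 FPKM in control ovaries (log2 change -1.08, SE 0.10, adjusted p = 3.16e-05). The ligand enhancer rspo1 named above was lower too, but the 4 higher Wnt genes are not described here. The named Wnt genes therefore do not stand for their list. Likewise bmp8a and LTBP3 were both higher, while 8 genes of the TGF-beta and BMP list were lower.

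Of 36 tested genes of apoptosis and autophagy, 6 were higher and 7 lower (3 and 8 with total count scaling, 3 higher without suppressed replicate 3 and 4 lower without suppressed replicate 1 or suppressed replicate 3). Their share past the test, 36.1%, was near the 35.9% of all genes tested. The transcription factor gene foxo3a, which in mice holds primordial follicles dormant, fell, with 6.62, 7.53 and 8.62 FPKM in SF1-suppressed ovaries, against 19.8, 16.1 and 19.7 FPKM in control ovaries (log2 change -1.22, SE 0.12, adjusted p = 4.69e-05). Its groups did not overlap.

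In lists of stress, complement, interferon, retinoic acid, sperm, chromatin, histone and housekeeping genes the share of tested members that passed ran from 26.4%, for chromatin and DNA methylation, to 75.0%, for complement, against 35.9% of all genes tested. In a short list such as complement the filter on level can raise this share, as described above for liver genes. Of 40 tested immediate early and heat shock genes, 13 were higher and 7 lower (11 and 10 with total count scaling, 8 higher without suppressed replicate 1). Of 8 tested complement genes, 4 were higher and 2 lower (1 lower without any 1 library other than suppressed replicate 2). Of 11 interferon response genes, 1 was higher and 2 were lower (1 lower without control replicate 3, suppressed replicate 1 or suppressed replicate 3). Of 15 retinoic acid genes, 4 were higher and 3 lower, and of 24 sperm flagellum genes, 5 were higher and 3 lower. Of 53 genes of chromatin and DNA methylation, 6 were higher and 8 lower (5 and 13 with total count scaling). Of 11 histone genes, 3 were higher and 0 lower. Of 20 housekeeping genes used as normalisers, 9 were higher and 1 lower (5 higher without suppressed replicate 1 and 2 lower without control replicate 1).

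Several lists of the core machinery of the cell held more higher than lower genes with TMM scaling, and with total count scaling the split narrowed or turned. With TMM scaling more were higher than lower among all genes with a mean of at least 100 FPKM as well (397 and 78 of 1011). Of 79 tested nuclear genes of mitochondrial respiration, 33 were higher and 3 lower, with a median log2 change of 0.14. The higher count was 19 without control replicate 3, 15 without suppressed replicate 1 and 17 without suppressed replicate 3, and with total count scaling the counts were 21 higher and 6 lower. The succinate dehydrogenase gene sdha rose, with 46.5, 46.5 and 48.3 FPKM in SF1-suppressed ovaries, against 30.2, 32.9 and 30.9 FPKM in control ovaries (log2 change 0.66, SE 0.055, adjusted p = 1.29e-05). The ATP synthase gene atp5o fell against the trend, with 149.7, 147 and 149.5 FPKM in SF1-suppressed ovaries, against 281, 301 and 268 FPKM in control ovaries (log2 change -0.86, SE 0.058, adjusted p = 3.37e-06). Of 68 tested mitochondrial ribosomal proteins, 19 were higher and 3 lower, with a median of 0.11 (14 and 5 with total count scaling). The gene mrps23 rose, with 87.1, 79 and 83 FPKM in SF1-suppressed ovaries, against 29.2, 23.5 and 22.9 FPKM in control ovaries (log2 change 1.79, SE 0.11, adjusted p = 1.69e-06), and mrpl32 fell, with 91, 80.8 and 89.2 FPKM in SF1-suppressed ovaries, against 239, 243 and 221 FPKM in control ovaries (log2 change -1.36, SE 0.067, adjusted p = 4.25e-07). The groups of these 4 genes did not overlap.

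Of 71 tested cytosolic ribosomal proteins, 10 were higher (14.1%, against 18.1% of all genes tested) and 0 lower, with a median of 0.093. This count rested on the choice of libraries. It was 4 without control replicate 1, 29 without control replicate 2, 4 without control replicate 3, 3 without suppressed replicate 1 and 5 without suppressed replicate 3, and 3 with total count scaling. The laminin receptor gene rpsa was among them, with 1576, 1432 and 1471 FPKM in SF1-suppressed ovaries, against 1156, 1319 and 1219 FPKM in control ovaries (log2 change 0.35, SE 0.065, adjusted p = 0.00239). Of 40 tested proteasome subunits, 13 were higher and 3 lower, with a median of 0.10. The higher count was 6 without control replicate 3, 5 without suppressed replicate 1 and 7 without suppressed replicate 3, and total count scaling gave 6 higher and 5 lower.

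Of 32 tested glycolysis genes, 14 were higher and 5 lower, with a median of 0.15 (12 and 8 with total count scaling). A copy of GAPDH (ENSONIG00000007002) had 1513, 1476 and 1507 FPKM in SF1-suppressed ovaries, against 1158, 1092 and 1118 FPKM in control ovaries (log2 change 0.49, SE 0.048, adjusted p = 3.94e-05). The liver-type phosphofructokinase gene pfkla fell, with 2.96, 3.06 and 3.45 FPKM in SF1-suppressed ovaries, against 14.2, 13.7 and 15.1 FPKM in control ovaries (log2 change -2.11, SE 0.083, adjusted p = 1.15e-07), and it overlaps a gene on the opposite strand. Of 82 tested cell cycle genes, 22 were higher and 10 lower, with a median of 0.03, and total count scaling turned this to 15 higher and 19 lower. The share past the test was 39.0%, against 35.9% of all genes tested. The higher count was 14 without suppressed replicate 1 or suppressed replicate 3. The lower count was 4 without control replicate 1, 6 without control replicate 2 or suppressed replicate 2 and 5 without suppressed replicate 3. The ribonucleotide reductase gene rrm1 had 108, 103 and 106 FPKM in SF1-suppressed ovaries, against 70.7, 69.4 and 71.2 FPKM in control ovaries (log2 change 0.66, SE 0.048, adjusted p = 5.84e-06), and the replication clamp gene pcna had 175, 158 and 172 FPKM in SF1-suppressed ovaries, against 135, 144 and 126 FPKM in control ovaries (log2 change 0.38, SE 0.066, adjusted p = 0.00148). The survivin gene birc5b, known in zebrafish from the egg, had 1009, 1021 and 1009 FPKM in SF1-suppressed ovaries, against 758, 719 and 715 FPKM in control ovaries (log2 change 0.54, SE 0.047, adjusted p = 1.82e-05, and 0.126 in the fit over all 12 libraries). The groups were apart in these 3 genes. Of 59 splicing factors, 5 were higher and 5 lower (5 and 10 with total count scaling, 2 lower without suppressed replicate 1 and 3 without suppressed replicate 3), and of 205 solute carriers, 30 were higher and 56 lower.

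The fit over all 12 libraries gave fewer calls over all genes, at 1345 higher and 1196 lower, and in most lists. It gave 12 higher and 3 lower genes of mitochondrial respiration and 10 and 2 mitochondrial ribosomal proteins. It gave 3 and 0 cytosolic ribosomal proteins and 3 and 2 proteasome subunits. For the cell cycle it gave 13 higher and 2 lower genes, for meiosis 5 and 5, for immediate early and heat shock genes 8 and 3, and for solute carriers 16 and 32. In steroid synthesis it gave 4 higher and 3 lower genes, among hormone receptors and ligands 3 and 3, among granulosa and ovary genes 2 and 2, and in theca and interstitial cells 0 and 1. The lysosomal list had 5 higher and 18 lower genes, cholesterol synthesis and uptake 0 and 7, ovulation and prostaglandins 4 and 7, and neurons and glia 1 and 2. It gave 5 higher and 5 lower TGF-beta and BMP genes, 2 and 3 Wnt genes, 5 and 3 chromatin genes, 3 and 1 splicing factors, and 5 and 1 housekeeping genes. Fewer digestive genes (0 higher and 2 lower), endothelial genes (2 and 1) and kidney and interrenal genes (3 and 1) passed as well. The same held for complement genes (4 and 1), interferon response genes (1 and 1) and retinoic acid genes (3 and 2). It held for Sertoli and testis genes (2 and 3) and histone genes (1 and 0) too. In germ cells 7 were higher and 0 lower.

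**Figure D4:**
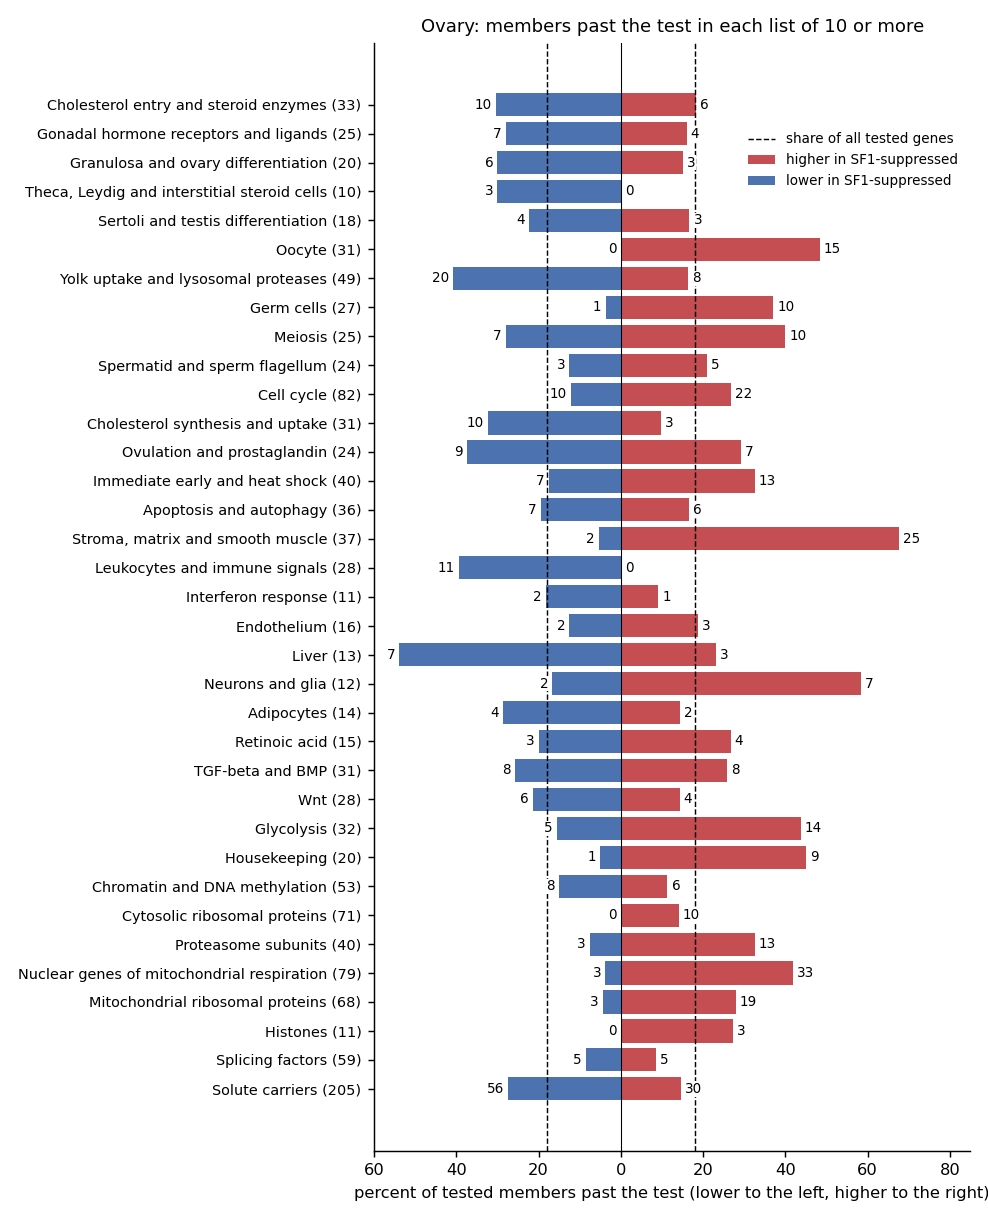
For the 35 gene lists with at least 10 tested members, each with its number of tested members in brackets, the bars give the percent of members that passed the test as lower (left) or higher (right) in SF1-suppressed than in control ovaries, and dashed lines mark the 17.9% and 18.1% of all genes tested. Of the lists drawn, stroma reaches farthest to the right with 25 of 37 members and liver farthest to the left with 7 of 13. The share for liver follows in part from the filter on level.

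The testis of the same series gave a measure of how many ovary calls were also called there. In testis 1571 of 14368 genes tested passed (10.9%). Among 11586 genes tested in both gonads, 3997 passed in ovary and 1128 in testis. They shared 544 genes, which are 13.6% of the ovary calls and 48.2% of the testis calls, and 395 of the 544 went the same way. The background for these shares is the 1128 testis calls and 3997 ovary calls among the 11586 genes. Over the larger sets tested in each gonad, 10.9% passed in testis and 35.9% in ovary. A gene not called in testis is not thereby shown to be unchanged there. The change in ovary minus the change in testis was tested over all 12 libraries. It passed for 2381 of 15382 genes (15.5%), more positive in ovary for 1254 (8.15%) and more negative for 1127 (7.33%). Of the 4510 ovary calls, 1403 (31.1%) also passed this test of the difference. The ovary change is part of the difference, so genes called in ovary pass this test more often by construction. The share above 15.5% is therefore no support for changes particular to ovary.

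The difference passed for several of the genes described above. For apoeb the ovary change exceeded a testis fall, with a testis log2 change of -1.62 and a difference of -1.6 (SE 0.387, adjusted p = 0.0152). For fabp11a the testis log2 change was 0.16 and the difference -3.0 (SE 0.372, adjusted p = 0.00022). For itgb2 these values were -0.059 and -2.5 (SE 0.393, adjusted p = 0.00115). The difference was also negative and past the test for the lysosomal genes ctsc, tpp1, lgmn, ctsz and ctsd and for the leukocyte gene csf1rb. For star, whose ovary change did not pass, the testis log2 change was 1.55 and the difference -1.87 (SE 0.438, adjusted p = 0.0127). The rise of ddx4 was not found to differ, with a testis log2 change of 0.94 and a difference of 0.46 (SE 0.159, adjusted p = 0.0734).

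**Figure D5:**
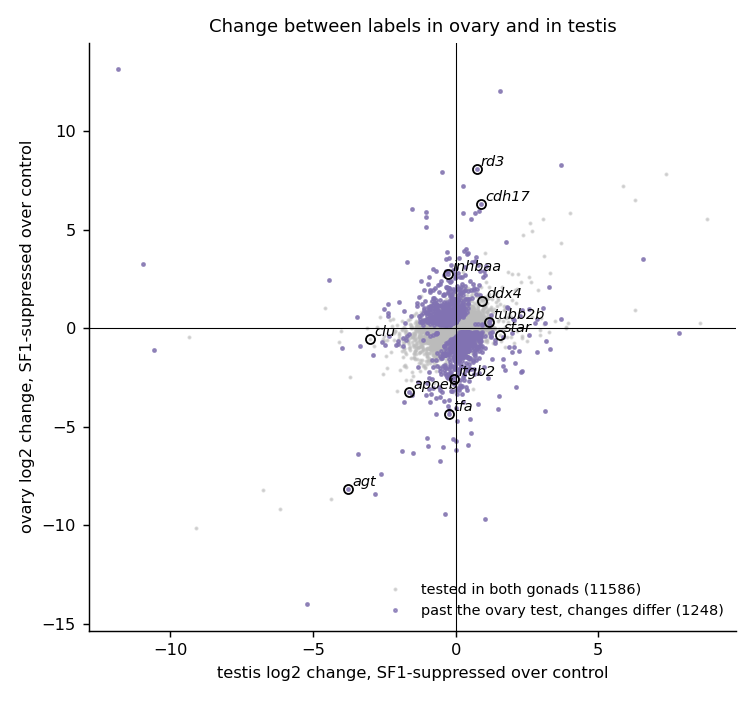
Log2 change in SF1-suppressed over control libraries in testis (x axis) and in ovary (y axis) for the 11586 genes tested in both gonads. Coloured points are the 1248 genes that passed the ovary test and whose changes differed between the gonads. Many of them lie near 0 for testis and away from 0 for ovary. Their distance from 0 for ovary, and from equal change in ovary and testis, follows from the way they were chosen. Their position is therefore no separate support for changes particular to ovary.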

How the data were processed

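Total RNA of ovary was sequenced by the authors with standard Illumina libraries, per the labels' protocols. HISAT and StringTie are named in the submitters' processing notes. The sources used here do not give their versions, the genome build, the annotation release or the strand setting. The deposited table gives, per the file headers, expected counts, which the authors estimated per gene and left unnormalised, and FPKM (the authors' scaling by gene length and library total, with 0.0001 listed for a count of 0) for 22283 Ensembl genes on 1102 scaffolds, 17380 of them with a symbol. All value columns were matched to a library, and 0 were left over.

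Genes with at least 1 FPKM in at least 3 of the libraries compared were tested on the counts with edgeR 4.0.16 (R 4.3.3), quasi-likelihood F test and TMM scaling, and Benjamini-Hochberg adjustment of p ran over every gene tested (threshold 0.05). Ovary was fitted on its own 6 libraries, and the ovary minus testis difference on all 12. The standard error was derived from the F statistic and can be too small for genes near 0 reads. For calcoco1b, for instance, it was 0.56, against 1.81 in DESeq2. The code was tested on simulated data with 200 changed genes. Other scalings, filters, limma 3.58.1, DESeq2 1.42.0, a replicate block and left-out libraries were run as alternatives. Left-out-library fits kept the same genes.

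The members and the 42 gene lists were chosen with earlier results of these data known. Lists share members, such as amh among granulosa and Sertoli genes and cyp11c1 among theca and kidney genes, so their counts are not separate observations. Groups that were apart were required for the largest rises and falls and go with a small p in list members, so they are no separate support. Named genes were the NR5A genes; the 10 largest rises and falls among genes with their own symbol, at least 5 FPKM and groups that do not overlap; the 6 most abundant in each direction; and, of each list, up to 6 members with the smallest p and the 2 most abundant that did not pass. Of these, those with a known role are described, and some genes are not reported here. The genes star, cyp19a1a, hsd17b1, cyp17a2, foxl2, lhcgr, loxa, col1a1b, col1a2 and ctsd were added for their role after their values were seen. A gene whose symbol several genes carry is called a copy, and its reads are less certain. Where a group had no read, the fold is a bound against 3 counts over the group, for counting error only. No pair of libraries agreed within sampling noise. No sequence is shown, since the reference used here holds gene names only.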

Additional observations from a re-analysis of the deposited data

Results flagged for a closer look

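The log2 change in ovary minus that in testis passed the edgeR interaction test over all 12 libraries for 64 of the genes named in the text, with adjusted p between 1.86e-07 and 0.0498, and these were picked out for that reason. A positive difference means that SF1-suppressed over control was higher in ovary than in testis. As background, 15.5% of the 15382 genes tested passed. Most named genes were chosen by their ovary change, which is part of the difference, so a larger share among them follows from that choice. No explanation was weighed.

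Among the largest ovary rises the difference was 7.39 for rd3, 9.27 for calcoco1b and 7.02 for si:ch211-124n19.2. It was 5.17 for chrm2b, 6.73 for opn4b and 4.68 for dlgap2a. Among the largest ovary falls it was -9.07 for txlnbb, -12.49 for lbx1a and -8.79 for si:zfos-1011f11.1. It was -4.36 for agt and -7.59 for crhb. Testis had negative changes too for 2 of these falls, at -5.19 for si:zfos-1011f11.1 and -3.75 for agt. For the rises its changes were 0.73 for rd3, 0.25 for si:ch211-124n19.2 and 0.67 for chrm2b. In calcoco1b, txlnbb, lbx1a and si:zfos-1011f11.1 a group is at or near 0 reads, so the fitted size depends on the prior count and is no bound. The genes calcoco1b, opn4b, dlgap2a, txlnbb, lbx1a and crhb were too low to be tested in testis alone. For opn4b the testis means were 0.044 FPKM in SF1-suppressed and 0.11 FPKM in control libraries. A response of testis cannot be read from the difference in these genes.

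Among abundant genes the difference was -0.82 for tubb2b, -1.59 for si:ch211-14a17.7, -1.68 for fth1a, -1.6 for apoeb and -3.0 for fabp11a. Both tubb2b and si:ch211-14a17.7 rose in ovary and had larger positive changes in testis, at 1.16 and 2.03. Among steroid genes it was -1.87 for star, -1.5 for hsd3b1, -1.28 for cyp19a1a and -3.14 for hsd17b1. Here testis had positive changes, at 1.55 for star, 1.51 for hsd3b1 and 0.79 for cyp19a1a, while hsd17b1 was not tested in testis alone. Among the other enzymes described with them it was -1.71 for cyp11c1, 1.4 for the bile acid enzyme hsd3b7 and -3.1 for a copy of cbr1.

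For receptors, ligands and sex factors the difference was 3.05 for inhbaa, 0.80 for paqr8, 3.84 for ptgs2b, -2.43 for arxa, 1.46 for dmrt1 and 2.46 for clu. Clusterin did not pass in ovary, and its testis change was -2.99. For germ line and meiosis genes it was 1.32 for dnd1, 0.62 for asz1, -0.66 for STAG3, -1.44 for dmc1 and 1.27 for a copy of SUN1. For the lysosome and lipid genes it was -1.26 for ctsc, -1.92 for ldlra, -2.72 for tpp1, -1.66 for lgmn and -2.41 for ctsz. It was -1.36 for ctsd, -0.52 for npc2 and -3.3 for apoa1a in the same lists, and apoa1a was too low to be tested in testis alone.

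For stroma genes the difference was 1.65 for loxl2a, 5.66 for loxa and -1.81 for myh11b. For leukocyte, endothelial and protease genes it was -2.5 for itgb2, -2.31 for csf1rb, -2.54 for flt4 and -1.26 for plat. For genes known from other organs it was 3.84 for tnnc2, -4.05 for cpa4, -4.07 for tfa, 5.46 for cdh17, -2.82 for slc20a1a and 6.32 for a copy of C3. For signalling genes it was -7.05 for LGR5, -1.16 for FZD1, 3.55 for LTBP3 and -0.99 for foxo3a. Of the genes in this paragraph, loxa, myh11b, tnnc2, LGR5 and the copy of C3 were too low to be tested in testis alone. For genes of the core machinery it was 1.66 for mrps23, -1.48 for mrpl32, -2.5 for pfkla and 0.56 for a copy of GAPDH. For znf507 it was 24.96 in a copy described under the other observations, whose fitted size likewise depends on the prior count.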

How the results depend on the processing

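Of the 101 named genes that passed the ovary test, 99 also passed without each library in turn, and the other 2 were cyp19a1a and hsd17b1. Over all genes, 2934 of the 4510 calls passed in all of these fits. List members were named by smallest p, so the named genes do not stand for all calls. The fit over all 12 libraries gave 1345 higher and 1196 lower genes. In that fit 17 of the 101 named calls were lost, and of all 4510 calls 2505 were kept. That fit shares 1 estimate of the spread between both gonads. No gene called in the ovary fit was called with the opposite sign under any alternative run. Without 1 library at a time the counts ran from 1638 to 2112 higher and from 1688 to 2151 lower. With total count scaling 36.0% of the calls were higher, against 50.3% with TMM, and limma on log2(FPKM + 1) gave 36.8% (1733 higher and 2976 lower), with medians of all genes of -0.077 and -0.068. DESeq2 gave 2481 higher and 2395 lower genes and shared 4468 calls with edgeR. For nr5a1, which did not pass in any of these, the log2 change was -0.025 with total count scaling, -0.023 and -0.037 with limma at pseudocounts of 1 and 0.1, and -0.34 to 0.34 without single libraries. Other genes that did not pass turned sign as well. For hsd3b1 the log2 change was 0.0072 in the fit over all 12 libraries. Without single libraries it ran from -0.38 to 0.16 for hsd3b1, -0.33 to 0.18 for foxl2, -0.27 to 0.24 for fn1a and -0.043 to 0.31 for cd74b. The cause was not tested. The pseudocount of 1 shrinks the log2 change of genes under a few FPKM by construction.

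The replicate numbers of the labels did not pair the samples: the deviations of same-numbered ovary libraries correlated at r = -0.091, -0.12 and -0.17 over the genes. A replicate block gave 1727 higher and 1720 lower ovary genes, and 622 positive and 557 negative differences between the gonads, against 1254 and 1127 without it. Without 1 library at a time these differences ran from 876 to 1452 positive and from 827 to 1606 negative.

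At 49.5 to 60.5 M counts per ovary library, counting error limits only the genes near 0 reads, whose fitted sizes are loose. The other limits are 3 libraries a group, 1 control library that stood apart, and labels that do not say which fish, fragments or control solution a library stands for.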

Other observations

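A copy of the zinc finger gene znf507 (ENSONIG00000020209, scaffold GL831302.1, from base 135002 to base 139506), singled out after its values were seen, changed in opposite directions in the gonads. It had 7.64, 8.69 and 8.89 FPKM in SF1-suppressed ovaries, against no read in any control ovary, and was at least 1054-fold higher against a limit of 3 counts over the group (edgeR adjusted p = 1.79e-07). In testis it had no read in any SF1-suppressed library, against 3.29, 4.71 and 4.83 FPKM in control testes (edgeR adjusted p = 0.000469). The gene lies on the scaffold that also holds nr5a1, but by the positions given for both it is far beyond the 50 kb used below for neighbours. A link between them was not tested. Its reads can be shared with other copies of the symbol.

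Some neighbouring genes were both among the 86 genes that changed by at least 32-fold in ovary. Of the 86, 6 had another of the 86 within 50 kb (6.98%, against 1.39% of all genes tested), which makes 3 pairs, each of neighbours that changed in the same direction. In 1 pair the genes overlap, as a copy of PLA2G12B lies within the bounds of oit3, and their reads may be shared.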
